A study of Mus musculus with 12 samples.

Results

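Levels of 8 transcription factors of nephron development and identity (Hnf4a, Hnf4g, Pax2, Pax8, Lhx1, Emx2, Osr1 and Wt1) were examined in conditionally immortalized proximal tubule (PT) cells of the mouse with and without the type II TGF-β receptor TβRII. The factors were chosen by name, for their known roles in kidney development, but with earlier results of these data known. They make up 8 of the 25514 genes counted. In total, 6 of the 8 passed the filter on low counts and were tested among 12971 genes. Hnf4a and Hnf4g did not pass it. Each gene is represented by its transcript with the highest total count.

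The nephron arises from the intermediate mesoderm, where Osr1, Pax2, Pax8 and Lhx1 are among the first factors to be expressed. Wt1 and Pax2 then act in the nephron progenitors and Lhx1 in the renal vesicle, Emx2 acts in the ureteric bud and the nephron epithelium, and Wt1 is later kept in podocytes. Hnf4a is a nuclear receptor that drives the mature proximal tubule program of solute transport and metabolism, and Hnf4g is its close paralog.

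RNA was sequenced from 12 libraries in 4 groups of 3. PT cells whose alleles of the receptor gene Tgfbr2 are floxed (H2ts6;Tgfbr2fl/fl, here Tgfbr2fl/fl cells), and cells that had lost it (H2ts6;Tgfbr2-/-, here Tgfbr2-/- cells) were each left untreated in culture medium with 2.5% serum or given H2O2 for 24 h in serum-free medium. The dose is 200 mM in the labels, whereas the methods of the study state it in μM. Per those methods, serum was also withheld for 24 h before the H2O2 was given. The H2O2-treated groups therefore differed from the untreated ones in serum as well as in H2O2, and these cannot be told apart. All groups carried a T antigen from the Immorto-mouse that is active at the lower temperature, were grown at 33 °C and were moved to 37 °C 5 days before the experiment. The cells came from male mice, and TβRII was deleted in culture with an adenovirus that carries Cre. No label says that the libraries of a group came from separate cultures, and p-values therefore measure the spread between these libraries, which may be technical. The genotypes are 2 cell lines, and the loss of TβRII cannot be told apart from whatever else distinguishes the lines.

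Gene counts per library summed to between 15870155 and 20857618. The first principal component (81.5% of the variance) divided the genotypes and the next (9.16%) the treatments. Tgfbr2 was at 8393 ± 843 normalized counts (SD, n = 3) in untreated Tgfbr2fl/fl cells and at 6605 ± 220 in untreated Tgfbr2-/- cells. The count is of a whole transcript and does not single out the deleted part, so it is no check of the deletion. The study's methods state that the deletion was checked by immunoblotting and RNAseq. The labelled cell type was checked against 35 proximal tubule genes, of which 13 passed the filter and 8 had no count in any library. The endocytic receptor Lrp2 (17280 ± 2656 and 11016 ± 434 normalized counts in the untreated genotypes), the water channel Aqp1 (7103 ± 783 and 4421 ± 175) and the peptidase Mme (10386 ± 663 and 5532 ± 186) were abundant. The defining transporters were not, with 5 counts of the phosphate transporter Slc34a1 over all libraries and no count of the organic anion transporter Slc22a6.

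Hnf4a and Hnf4g were at the limit of detection in both genotypes. Hnf4a had 1 count in replicate 2 of untreated Tgfbr2fl/fl cells, 1 count in replicate 3 of untreated Tgfbr2-/- cells, and 0 in the other 10 libraries. Hnf4g had 7 counts over all libraries, of which 3 lay in replicate 2 of H2O2-treated Tgfbr2fl/fl cells and 2 in replicate 3 of H2O2-treated Tgfbr2-/- cells. All groups overlapped, and no difference was detectable at this depth: a library without a count allows an expected count of up to 3.69 (95% exact Poisson interval, counting error only).

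Among the other 6 factors the order of levels was the same in both treatments of a genotype and differed between genotypes at 1 place. Pax8 was the most abundant per kilobase of transcript in all groups, with 1404 ± 48.2 normalized counts per kb in untreated Tgfbr2fl/fl cells, above 95.3% of the genes detected there. Pax2 followed at 1070 ± 94.4 and Emx2 at 391.7 ± 7.19 normalized counts per kb. Osr1 (117.5 ± 6.04) stood above Wt1 (73.6 ± 3.62) in Tgfbr2fl/fl cells, whereas in untreated Tgfbr2-/- cells Wt1 (61.3 ± 3.26) stood above Osr1 (24.5 ± 2.78). Lhx1 was lowest of the 6, at 8.08 ± 3.06 and 0.23 ± 0.399 normalized counts per kb. The libraries of neighbouring factors in this order did not overlap in any group, except that Lhx1 overlapped Hnf4g in the Tgfbr2-/- groups and Hnf4g overlapped Hnf4a in all 4 groups. These levels per kb depend on the length of the representative transcript.

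**Figure D1:**
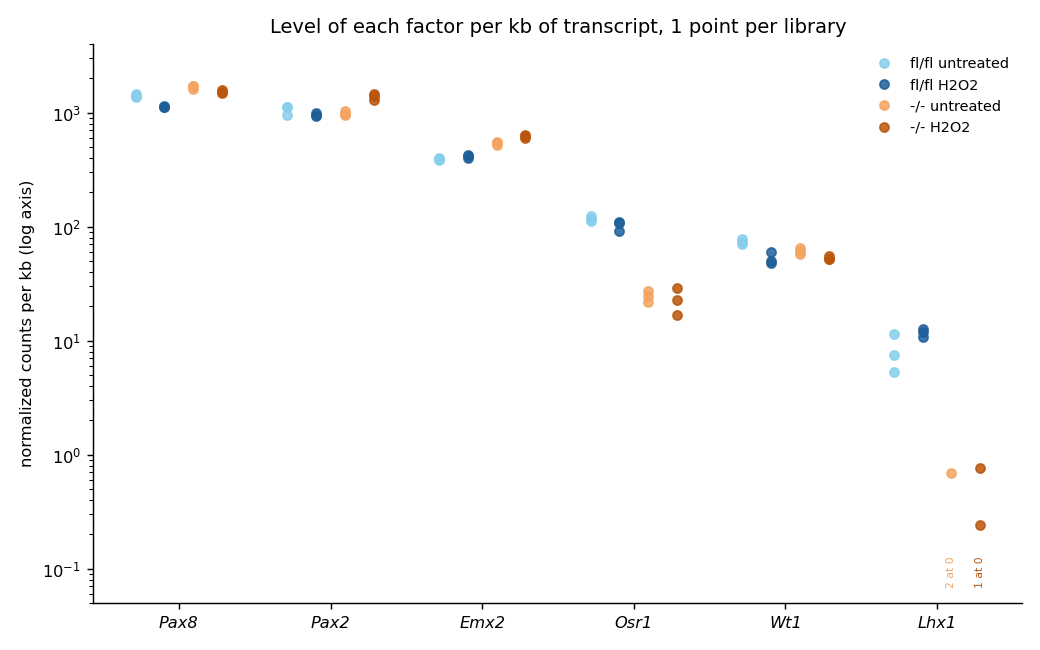
Normalized counts per kb of transcript (log axis) of 6 factors, with 1 point per library and libraries with no count written as text. Pax8, Pax2 and Emx2 lie highest in all 4 groups, and Osr1 lies above Wt1 in both Tgfbr2fl/fl groups and below it in both Tgfbr2-/- groups.

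Between the genotypes, 5 of the 6 factors tested passed an adjusted p of 0.05 in untreated cells, 2 of them higher and 3 lower in Tgfbr2-/- cells (edgeR's quasi-likelihood test, Benjamini-Hochberg adjusted). Over all genes tested 64.7% passed, so a count of 5 of 6 is not far from the background. In H2O2-treated cells 5 of 6 passed as well, 3 higher and 2 lower, against 66.4% of all genes. At an unadjusted p under 0.01 and a fold change of at least 1.5, the limits used in the study, 2 of the 6 passed in each treatment (Lhx1 and Osr1, both lower), against 27.0% and 29.8% of all genes. Lhx1 reached the level of the filter (10 counts in a library of median size) in Tgfbr2fl/fl libraries alone. It was thus tested only through the genotype where it is high, which favours a call, and its call is no separate support. Among the other 5 factors 4 were called in each treatment, and 1 (Osr1) passed the limits of the study. Of all genes tested, 7.74% reached that level in fewer than 3 libraries of 1 genotype, and 737 of these 1004 were called between untreated genotypes. Such genes (Lhx1, Osr2, Isl2, Wnt4, Gdnf, Mlxipl, Foxa2, Ggt1, Slc5a2, Acsm2, Bmp7, Sim2, Grhl2, Gata6, Ebf1, Pdgfrb, Dcn and Esam among those named) are given below by their levels, with no p for the genotype difference. The medians of the gene lists below include them. In bulk RNA, fewer cells that express a gene and less RNA per cell cannot be told apart.

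**Figure D2:**
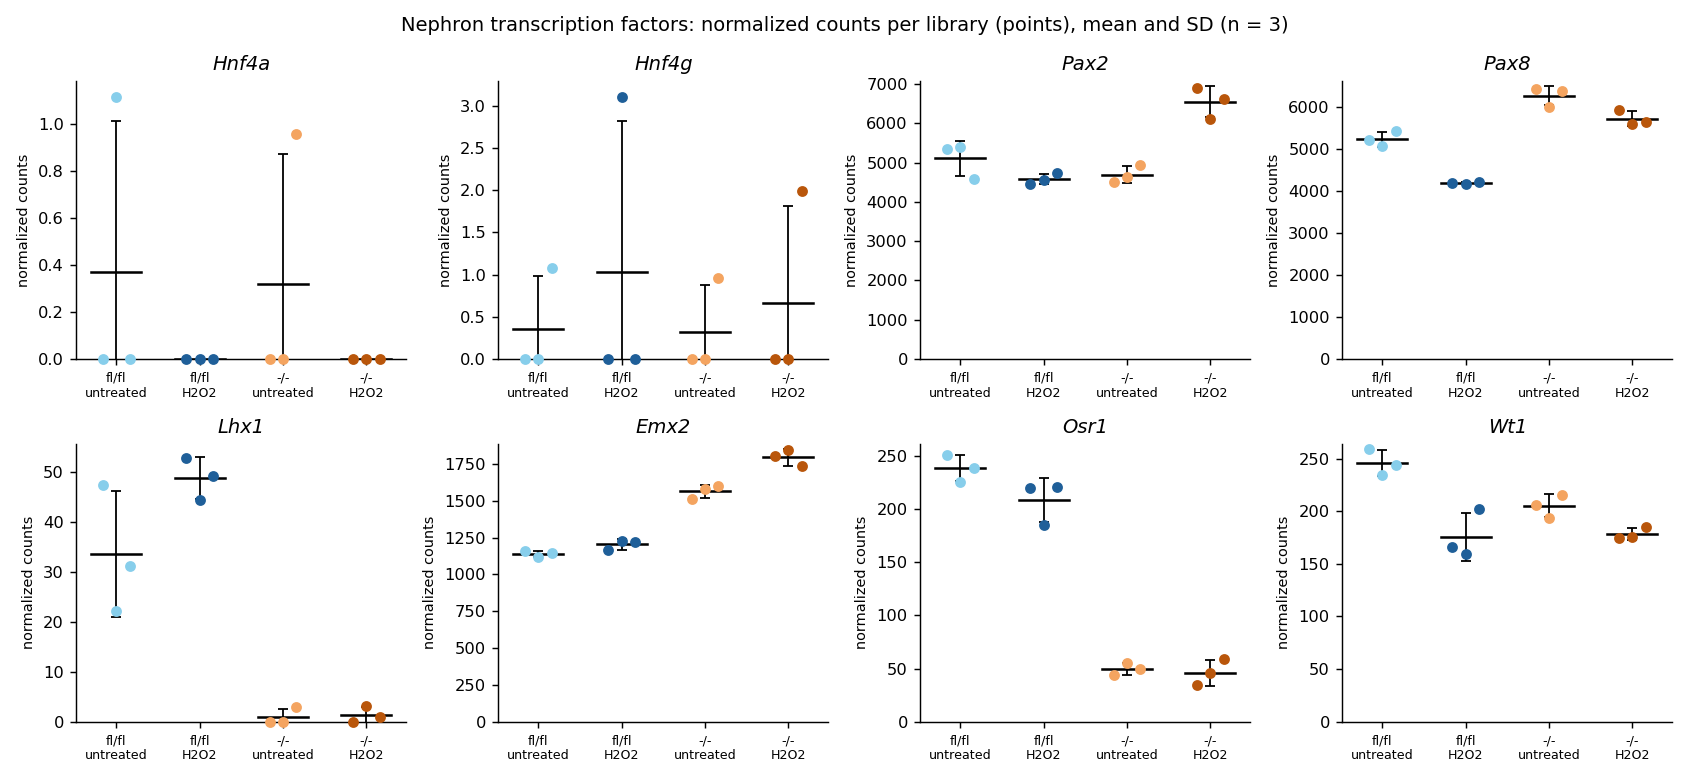
Normalized counts of the 8 factors in each library (points), with the group mean (line) and SD (bar, drawn down to 0 at most), n = 3; every axis starts at 0. Lhx1 and Osr1 fall to low levels in both Tgfbr2-/- groups, Emx2 and Pax8 are higher there, and Pax2 is highest in H2O2-treated Tgfbr2-/- cells.

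The earliest of these factors, Osr1, a zinc finger protein of the intermediate mesoderm, was lower in Tgfbr2-/- cells. It lies on chromosome 12 (9574442 to 9581500, GRCm38.p6), where the 24 nearest genes tested had a median log2 genotype difference of 0.11. Its counts in replicates 1, 2 and 3 were 238, 203 and 222 in untreated Tgfbr2fl/fl cells and 42, 57 and 52 in untreated Tgfbr2-/- cells. With H2O2 they were 217, 179 and 193 in Tgfbr2fl/fl cells and 37, 58 and 59 in Tgfbr2-/- cells. All 6 Tgfbr2-/- libraries lay below all 6 Tgfbr2fl/fl libraries. The mean fell 4.78-fold in untreated cells, from 238.3 ± 12.3 to 49.6 ± 5.63 normalized counts (log2 fold change -2.26, SE 0.15, adjusted p = 1.25e-14). In H2O2-treated cells it was 4.54-fold lower (log2 fold change -2.18, SE 0.15, adjusted p = 3.55e-14). Between H2O2-treated and untreated cells the log2 differences were -0.19 in Tgfbr2fl/fl cells (95% interval -0.44 to 0.06, adjusted p = 0.212) and -0.12 in Tgfbr2-/- cells (95% interval -0.51 to 0.27, adjusted p = 0.664), neither past the threshold. The sign of the latter turned to 0.05 without replicate 1 of H2O2-treated Tgfbr2-/- cells.

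The paralog Osr2, which marks kidney mesenchyme and early nephron structures, went the other way. It had 4, 2 and 1 counts in untreated Tgfbr2fl/fl cells and 146, 142 and 215 in untreated Tgfbr2-/- cells (2.5 ± 1.59 and 165.3 ± 35.9 normalized counts). With H2O2 the counts were 2, 0 and 0 in Tgfbr2fl/fl cells and 403, 425 and 318 in Tgfbr2-/- cells, a ratio of 482 (95% exact interval 133 to 3984, counting error only). Per kb, Osr1 exceeded Osr2 130-fold in untreated Tgfbr2fl/fl cells and Osr2 exceeded Osr1 2.45-fold in untreated Tgfbr2-/- cells. With H2O2 this ratio of Osr2 to Osr1 was 5.42 in Tgfbr2-/- cells. The sum of the pair was between 112 and 125 normalized counts per kb in untreated Tgfbr2fl/fl cells, between 91.2 and 109.3 in H2O2-treated Tgfbr2fl/fl cells, between 76.96 and 99.1 in untreated Tgfbr2-/- cells, and between 143.5 and 151.6 in H2O2-treated Tgfbr2-/- cells.

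Lhx1, a LIM homeodomain factor of the intermediate mesoderm and the renal vesicle, had the fewest counts of the 6 factors tested. It lies on chromosome 11 (84517975 to 84525534, GRCm38.p6), among 24 genes with a median of -0.18. It had 45, 20 and 29 counts in untreated Tgfbr2fl/fl cells and 52, 43 and 43 with H2O2. In Tgfbr2-/- cells it had 0, 0 and 3 counts untreated and 0, 4 and 1 counts with H2O2. No Tgfbr2-/- library reached the lowest Tgfbr2fl/fl library. The ratio of Tgfbr2fl/fl to Tgfbr2-/- cells was 34.2 in untreated cells (95% exact interval 11.4 to 169, from 94 against 3 counts) and 32.8 in H2O2-treated cells (13.7 to 103, from 138 against 5 counts). These intervals cover counting error only. All 3 counts of the untreated Tgfbr2-/- cells lay in replicate 3, and without that library the group was at 0. In Tgfbr2fl/fl cells the log2 difference with H2O2 was 0.53 (95% interval -0.06 to 1.12, adjusted p = 0.146). It became 0.87 (adjusted p = 0.0329) without replicate 1 of the untreated Tgfbr2fl/fl cells, the highest of the 3.

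The sequence just before the start of Lhx1 is shown because this gene is near 0 counts in 1 genotype and counted in every library of the other. The window is from RefSeq on GRCm38.p6, chr11:84525543-84525784, minus strand, and ends where the annotated transcripts begin. A search on both strands for 6 motifs (GTCTAGAC, a Smad binding palindrome; TGANTCA, AP-1; TGACNNNGC, the antioxidant response element; GGGCGG, the GC box; TATAAA, the TATA box; and TAATTA, a homeodomain core) found none in the 250 bases before this start.

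Lhx1: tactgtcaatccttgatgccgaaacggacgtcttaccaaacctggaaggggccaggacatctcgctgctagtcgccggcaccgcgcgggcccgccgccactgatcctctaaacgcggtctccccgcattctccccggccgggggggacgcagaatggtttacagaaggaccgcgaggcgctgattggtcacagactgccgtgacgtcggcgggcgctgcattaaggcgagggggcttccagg

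The window held 26 CpG dinucleotides and 64.8% G and C, against medians of 6 and 52.4% over 32851 RefSeq windows of 250 bases. That no motif matched says only that these letters are not in this window.

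Other LIM homeodomain genes were on both sides. Lhx9 fell from 234.8 ± 10.8 to 17.8 ± 4.04 normalized counts in untreated cells (log2 fold change -3.71, SE 0.17, adjusted p = 6.66e-19) and Isl2 was at 31.3 ± 4.79 and 6.32 ± 1.83. Lhx2 rose from 38.5 ± 2.4 to 173.8 ± 33.7 (2.17, SE 0.16, adjusted p = 2.1e-13) and Lhx6 from 31.1 ± 7.07 to 107.7 ± 3.71 (1.79, SE 0.19, adjusted p = 4.87e-10). Per kb, Lhx9 was the highest LIM homeodomain gene listed in untreated Tgfbr2fl/fl cells at 64.4 ± 2.96, and Lhx2 the highest in untreated Tgfbr2-/- cells at 60.9 ± 11.8. Lhx5, the closest relative of Lhx1, had 12 counts in all. Ldb1, the adaptor through which LIM homeodomain factors act, was at 3907 ± 173 and 3283 ± 56.3 normalized counts (log2 fold change -0.25, SE 0.06, adjusted p = 0.000315). Of the 21 cofactors and relatives listed, 11 were tested, 4 rose and 6 fell, with a median log2 fold change of -0.20 against 0.01 over all genes. Over all genes tested 33.3% rose and 31.4% fell between the untreated genotypes. Of the 9 listed genes that reached the level of the filter in both genotypes, 3 rose and 5 fell.

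**Figure D3:**
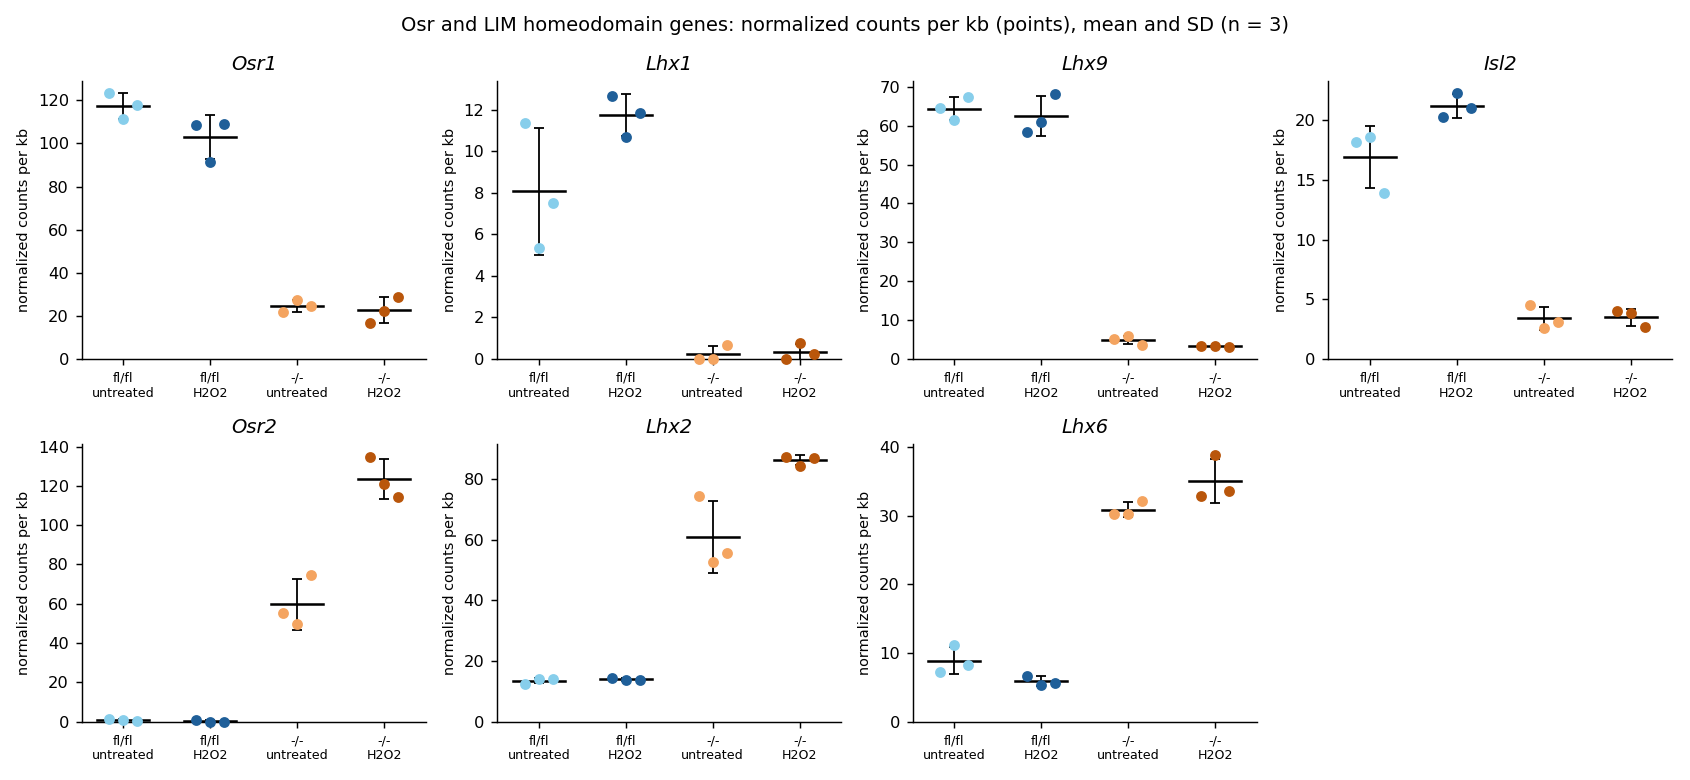
Normalized counts per kb of 7 Osr and LIM homeodomain genes in each library (points), with the group mean (line) and SD (bar), n = 3; every axis starts at 0. Osr1, Lhx1, Lhx9 and Isl2 are high in Tgfbr2fl/fl cells, and Osr2, Lhx2 and Lhx6 in Tgfbr2-/- cells, in both treatments.

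Pax2 and Pax8, paired-box factors that act together in the nephric lineage and persist in tubule epithelium, were the most abundant of the 8 and differed in their pattern over the groups. Pax2, on chromosome 19 (44746601 to 44838269, GRCm38.p6), had 5073, 4845 and 4264 counts in untreated Tgfbr2fl/fl cells and 4398, 4416 and 4123 with H2O2. Untreated Tgfbr2-/- cells had 4313, 4781 and 5167 counts, and 7478, 7775 and 6665 with H2O2. On the normalized scale, the H2O2-treated Tgfbr2-/- libraries (6113 to 6903) lay above all other libraries (4462 to 5391), which overlapped each other. Pax2 rose with H2O2 in Tgfbr2-/- cells, from 4695 ± 225 to 6548 ± 401 normalized counts (log2 fold change 0.48, SE 0.07, adjusted p = 6.45e-07). In Tgfbr2fl/fl cells it was at 5105 ± 450 and 4583 ± 133 (log2 difference -0.16, 95% interval -0.29 to -0.02, adjusted p = 0.0577). The interaction, the H2O2 difference in Tgfbr2-/- minus that in Tgfbr2fl/fl cells, was 0.64 on the log2 scale (SE 0.09, adjusted p = 1.94e-05).

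Pax2 was the 1 factor of 6 whose interaction passed the threshold, against 10.2% of all genes tested. Medians of the genotype difference over the 24 genes tested nearest to Pax2 were 0.24 with H2O2 and 0.20 without. For Pax2 itself it was 0.51 with H2O2 (SE 0.07, adjusted p = 3.35e-08) and -0.12 without (95% interval -0.25 to 0.01, adjusted p = 0.109). Replicate 3 of untreated Tgfbr2fl/fl cells, which had the lowest Pax2 of its group, decided 2 of these calls. Without it the untreated genotype difference was -0.20 (adjusted p = 0.00454) and the H2O2 difference in Tgfbr2fl/fl cells -0.22 (adjusted p = 0.00455). That library carries a title abbreviated differently from those of its group, with the same genotype and medium. The interaction stayed between 0.57 and 0.68 over 18 alternatives, including the fits without each library.

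Pax8 was higher in Tgfbr2-/- cells in both treatments and lower with H2O2 in Tgfbr2fl/fl cells. Its counts were 4942, 4544 and 5033 in untreated and 4118, 4024 and 3675 in H2O2-treated Tgfbr2fl/fl cells. In Tgfbr2-/- cells they were 6143, 6195 and 6648 untreated and 6406, 7093 and 5670 with H2O2. After normalization the groups did not overlap in any of the 4 comparisons. Pax8 rose from 5223 ± 179 to 6262 ± 231 normalized counts between the untreated genotypes (log2 fold change 0.26, SE 0.06, adjusted p = 0.000192) and from 4182 ± 27.8 to 5709 ± 179 between the H2O2-treated ones (0.45, SE 0.06, adjusted p = 3.83e-08). It fell with H2O2 in Tgfbr2fl/fl cells (-0.32, SE 0.06, adjusted p = 4.43e-05). The difference in Tgfbr2-/- cells was -0.13 (95% interval -0.25 to -0.02, adjusted p = 0.0634), which passed with DESeq2 (adjusted p = 0.0197), on sums over transcripts (0.0369) and in a fit of only the groups compared (0.0127). The interaction of Pax8 did not pass (0.19, SE 0.08, adjusted p = 0.148).

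The ratio of Pax2 to Pax8 per kb lay between 0.661 and 0.831 in untreated and between 0.833 and 0.875 in H2O2-treated Tgfbr2fl/fl cells. In Tgfbr2-/- cells it lay between 0.547 and 0.606 untreated and between 0.855 and 0.917 with H2O2. The ratio was thus higher in every H2O2-treated library than in every untreated library of its genotype. Other members of the family were scarce: Pax3 had 1 count, Pax6 2 counts and Pax9 66 counts over all libraries. On chromosome 2, where Pax8 lies (24420551 to 24475599, GRCm38.p6), the 24 nearest genes tested had a median log2 genotype difference of 0.48 in untreated cells and the 1004 genes of the chromosome one of 0.31. The difference of Pax8 itself was 0.26, below both medians.

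The windows before the starts of Pax8 and of the first of 3 RefSeq starts of Pax2 are shown with the matches to the 6 motifs in capitals. For Pax8 (chr2:24475606-24475849, minus strand) the window ends where the annotated transcript begins, and the capitals mark 1 GC box on the opposite strand, a motif found in 32.7% of all windows. For Pax2 (chr19:44746351-44746600, plus strand) the capitals mark the Smad binding palindrome GTCTAGAC, which starts 18 bases before the start site and is found in 0.167% of all windows. This window was printed because it holds that match. The windows of the other 2 starts hold none and have 1 GC box each.

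Pax8: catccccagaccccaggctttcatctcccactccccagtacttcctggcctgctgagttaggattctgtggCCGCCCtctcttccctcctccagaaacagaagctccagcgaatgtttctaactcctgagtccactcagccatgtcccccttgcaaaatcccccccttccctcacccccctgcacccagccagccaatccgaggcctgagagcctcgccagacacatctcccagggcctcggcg
Pax2: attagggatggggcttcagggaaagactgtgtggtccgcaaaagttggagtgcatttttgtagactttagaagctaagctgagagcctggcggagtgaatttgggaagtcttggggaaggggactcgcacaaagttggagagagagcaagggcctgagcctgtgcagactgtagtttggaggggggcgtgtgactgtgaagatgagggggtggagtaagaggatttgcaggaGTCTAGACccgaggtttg

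The transcript that represents Pax2 does not include this first start, so its counts do not report on it. Both matches are descriptions of sequence, and binding was not measured.

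Emx2, a homeodomain factor of the ureteric bud and nephron epithelium, was higher in Tgfbr2-/- cells. It lies on chromosome 19 (59458690 to 59465357, GRCm38.p6), where the 23 nearest genes tested had a median of 0.28. Its counts were 1105, 1007 and 1063 in untreated and 1147, 1190 and 1063 in H2O2-treated Tgfbr2fl/fl cells. The Tgfbr2-/- cells had 1446, 1632 and 1672 counts untreated and 1952, 2351 and 1747 with H2O2. On the normalized scale the 4 groups did not overlap. Between untreated genotypes Emx2 rose 1.37-fold, from 1142 ± 21 to 1564 ± 46.3 normalized counts (log2 fold change 0.45, SE 0.06, adjusted p = 3.93e-08), and between H2O2-treated ones 1.49-fold (0.58, SE 0.06, adjusted p = 1.65e-10). With H2O2 in serum-free medium it was higher in Tgfbr2-/- cells, at 1796 ± 55.8 (0.20, SE 0.06, adjusted p = 0.00516). In Tgfbr2fl/fl cells the difference was 0.08 (95% interval -0.05 to 0.20, adjusted p = 0.323), and the difference between these responses was 0.12 (95% interval -0.04 to 0.29, adjusted p = 0.377). Its paralog Emx1 had no count in any library.

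Wt1, a zinc finger factor of nephron progenitors and podocytes, was highest in untreated Tgfbr2fl/fl cells. It lies on chromosome 2 (105126529 to 105173614, GRCm38.p6). There the 24 nearest genes tested had a median log2 genotype difference of 0.06 in untreated cells, and the whole chromosome one of 0.31. Wt1 had 246, 211 and 227 counts in untreated Tgfbr2fl/fl cells and 164, 154 and 176 with H2O2. Counts in Tgfbr2-/- cells were 197, 200 and 225 untreated and 189, 223 and 186 with H2O2. On the normalized scale the 3 untreated Tgfbr2fl/fl libraries (234.8 to 258.8) lay above the other 9 (159.1 to 215.4). H2O2-treated Tgfbr2fl/fl cells (159.1 to 201.7) overlapped both Tgfbr2-/- groups, which did not overlap each other (193.6 to 215.4 untreated and 174.5 to 185 with H2O2). Wt1 fell with H2O2 in Tgfbr2fl/fl cells, from 245.9 ± 12.1 to 175.7 ± 22.8 normalized counts (log2 fold change -0.49, SE 0.11, adjusted p = 0.000499). In Tgfbr2-/- cells it was at 205 ± 10.9 and 178.3 ± 5.83 (-0.20, 95% interval -0.42 to 0.01, adjusted p = 0.132), and the interaction did not pass (0.29, SE 0.15, adjusted p = 0.254). The untreated genotype difference was -0.26 (SE 0.10, adjusted p = 0.0288). It lost its call without replicate 1 of untreated Tgfbr2fl/fl cells (adjusted p = 0.0931), and without replicate 1 (0.0509) or replicate 2 (0.102) of untreated Tgfbr2-/- cells. With H2O2 the genotypes overlapped (0.02, 95% interval -0.20 to 0.25, adjusted p = 0.861).

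**Figure D4:**
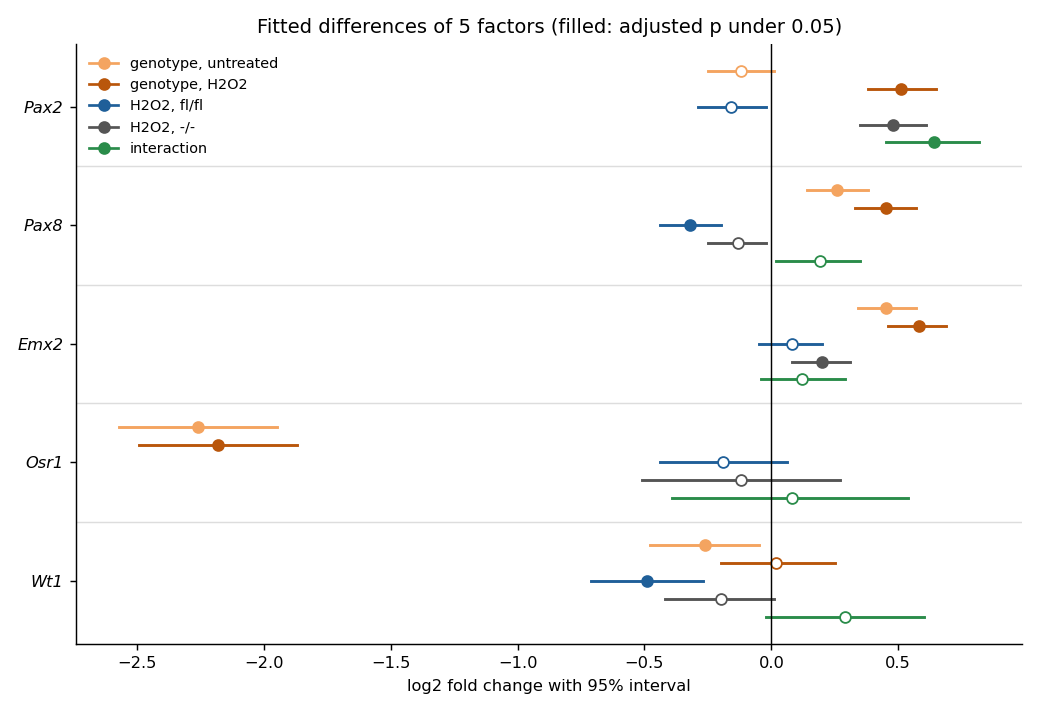
Log2 fold changes (points) with 95% intervals (lines) of 5 factors in the 4 comparisons and the interaction; filled points have an adjusted p under 0.05. Osr1 differs between genotypes by more than 2 on the log2 scale, Pax2 alone has a filled interaction, and Lhx1 is left out because its Tgfbr2-/- groups hold 3 and 5 counts.

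With H2O2, 2 of the 6 factors passed an adjusted p of 0.05 in Tgfbr2fl/fl cells (Pax8 and Wt1, both lower), against 41.6% of all genes tested. In Tgfbr2-/- cells 2 of 6 passed (Pax2 and Emx2, both higher), against 39.6%. At the limits of the study none passed in either genotype, against 7.56% and 7.77% of all genes, although in edgeR's test 3 factors in Tgfbr2fl/fl cells and 3 in Tgfbr2-/- cells had an unadjusted p under 0.05. Of the 6 factors, Pax2 alone had a difference in H2O2 response between the genotypes that passed its own test. The untreated genotype comparison shares its untreated libraries with both H2O2 comparisons.

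The files count each annotated transcript model of a gene, between 2 and 8 models for these factors. For Wt1, the transcript models Wt1-201 and Wt1-202 carried between 94.8% and 95.2% of the counts of the representative model in every group. For Pax2, model Pax2-201 carried between 96.4% and 97.3%. For Osr1, the shorter model Osr1-202 carried between 16.6% and 25.3%, lowest in untreated Tgfbr2-/- cells. Judged from these counts, reads that several models share were counted on each of them, so these shares are not shares of isoforms. GENCODE M39 places an antisense RNA over several of these genes (Emx2os, Wt1os, Lhx1os and Hnf4aos among them), for which no counts were used here. Whether the counting used strand is not given in the sources used here, and reads of a factor and its antisense partner may not be told apart.

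Over the 12 libraries, the genes whose log2 CPM (counts scaled to library size) were most like a factor differed in how closely they followed it. For Osr1 the closest were Ist1 (Pearson r = 0.995), Cd200 (0.991) and Tcof1 (0.991), and for Emx2 they were Sestd1 (0.993), Sipa1l2 (0.993) and Tk2 (0.992). For Lhx1 they were Rad54l2, Plekhh2 and Pcdhb17 (each 0.983), and for Pax8 Litaf (0.989), Veph1 (0.988) and Cobl (0.987). These correlations include the differences between the 4 groups, and 1291, 1420, 1212 and 586 of 12260 genes exceeded 0.9 for Osr1, Emx2, Lhx1 and Pax8. Pax2 and Wt1 had few such genes. For Pax2, 3 genes exceeded 0.9: Nkd2 (0.905), Pold1 (0.905) and Pak1 (0.902). For Wt1, 13 genes did so, led by Tbl1x (0.949), Ubqln1 (0.943) and Ankrd40 (0.931).

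Of 26 partners and downstream genes of Pax2 and Pax8, 12 were tested, of which 9 rose and 2 fell in untreated Tgfbr2-/- cells (median log2 fold change 0.89), against 33.3% of all genes that rose and 31.4% that fell. Of the 10 that reached the level of the filter in both genotypes, 8 rose and 1 fell. Wnt4, a signal that turns progenitors into epithelium, was at 7.27 ± 4.47 and 640.5 ± 33.4 normalized counts. The GDNF co-receptor Gfra1 rose from 22.6 ± 5.22 to 340.8 ± 14.7 (3.90, SE 0.16, adjusted p = 7.07e-20). Its ligand Gdnf had 138 counts in untreated Tgfbr2fl/fl and 3 in untreated Tgfbr2-/- cells, a ratio of 50.2 (95% exact interval 16.8 to 246, counting error only). Hoxc11 fell from 79.96 ± 5.28 to 54.9 ± 5.16 (-0.54, SE 0.17, adjusted p = 0.00504). With H2O2, 6 of the 12 rose and none fell in Tgfbr2fl/fl cells, and 4 rose and 1 fell in Tgfbr2-/- cells. Over all genes tested 21% rose and 20.5% fell in the former, and 20.5% rose and 19.1% fell in the latter.

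Among known partners of Hnf4a, 21 genes were listed and 11 tested, of which 7 rose and 3 fell in untreated Tgfbr2-/- cells (median 1.24), against 33.3% and 31.4% of all genes. Of the 9 that reached the level of the filter in both genotypes, 5 rose and 3 fell. The median includes 2 genes, both higher, that did not reach that level in both. Foxa2, a forkhead factor, had no count in Tgfbr2fl/fl cells and 50 counts in untreated Tgfbr2-/- cells, at least 15.3-fold higher against a floor of 3 counts over the group. Mlxipl, a glucose-responsive factor, was at 2.16 ± 0.0613 and 106.6 ± 17.6 normalized counts. The bile acid receptor Nr1h4 (-0.39, SE 0.12, adjusted p = 0.00669) and the orphan receptor Nr2f6 (-0.31, SE 0.12, adjusted p = 0.0201) fell. Nr2f6 lost its call with DESeq2 (adjusted p = 0.201), on sums over transcripts (0.0539), and without replicate 2 of untreated Tgfbr2fl/fl cells (0.0641) or replicate 2 (0.188) or 3 (0.238) of untreated Tgfbr2-/- cells.

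Of the 35 differentiated proximal tubule genes listed, 13 were tested, of which 4 rose and 8 fell in untreated Tgfbr2-/- cells (median -0.65), against 33.3% and 31.4% of all genes. Of the 10 that reached the level of the filter in both genotypes, 3 rose and 6 fell, and without a filter 8 of 27 genes tested rose. The peptidase Ggt1 was at 75.8 ± 15.2 and 7.61 ± 1.62 normalized counts. The glucose transporter Slc5a2 had 41 counts in untreated Tgfbr2fl/fl cells and none in untreated Tgfbr2-/- cells, at least 14.9-fold lower. The amino acid transporter Slc6a19 rose from 28.2 ± 6.21 to 174.3 ± 7.94 (2.63, SE 0.19, adjusted p = 8.23e-14), and Acsm2 had 0 and 41 counts, at least 12.5-fold higher.

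Genes of the renal vesicle and of early patterning, where Lhx1 acts, were lower in 6 and higher in 3 of the 11 tested of 18 (median -0.47), against 31.4% and 33.3% of all genes. Of the 8 that reached the level of the filter in both genotypes, 6 were lower and 1 higher. The Notch ligand Jag1 fell from 6698 ± 908 to 1702 ± 99.1 normalized counts (-1.98, SE 0.08, adjusted p = 5.03e-21) and the homeobox gene Irx1 from 604.8 ± 21.97 to 207 ± 53.6 (-1.55, SE 0.11, adjusted p = 2.59e-14). Bmp7 had no count in Tgfbr2fl/fl cells and 29 in untreated Tgfbr2-/- cells, at least 8.86-fold higher.

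Podocyte genes and other genes near Wt1 were higher in 6 and lower in 4 of the 14 tested of 21 (median 0.12), against 33.3% and 31.4% of all genes. The surface protein Podxl rose from 36.3 ± 4.94 to 520 ± 19 normalized counts (3.83, SE 0.13, adjusted p = 7.26e-23). The actin-binding protein Synpo fell from 2900 ± 138 to 366.7 ± 22.6 (-2.98, SE 0.08, adjusted p = 1.08e-25) and Thsd7a from 371.4 ± 33.4 to 69.7 ± 12.6 (-2.41, SE 0.13, adjusted p = 2.56e-17). Nphs1, which encodes nephrin of the slit diaphragm, had 0 counts over all libraries.

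Transcription factors of other nephron segments were higher in 11 and lower in 1 of the 12 tested of 22 (median 1.20), against 33.3% and 31.4% of all genes. Of the 8 that reached the level of the filter in both genotypes, 7 were higher and 1 lower. The median includes 4 genes, all higher, that did not reach that level in both. Sim2 had no count in untreated Tgfbr2fl/fl cells and 95 in untreated Tgfbr2-/- cells, at least 29-fold higher. Grhl2, an epithelial factor, was at 1.81 ± 0.657 and 170.8 ± 26.3 normalized counts, and Mecom fell (-0.57, SE 0.10, adjusted p = 1.48e-05). Stromal and mesenchymal factors were lower in 9 and higher in 5 of the 15 tested of 19 (median -0.44), against 31.4% and 33.3% of all genes. Of the 11 that reached the level of the filter in both genotypes, 7 were lower and 4 higher. Gata6 was at 119.9 ± 14.3 and 3.35 ± 2.18 normalized counts and Ebf1 at 22.7 ± 5.73 and 1.31 ± 0.525. Twist2 rose (1.14, SE 0.13, adjusted p = 3.81e-09), and Osr2 is given above.

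**Figure D5:**
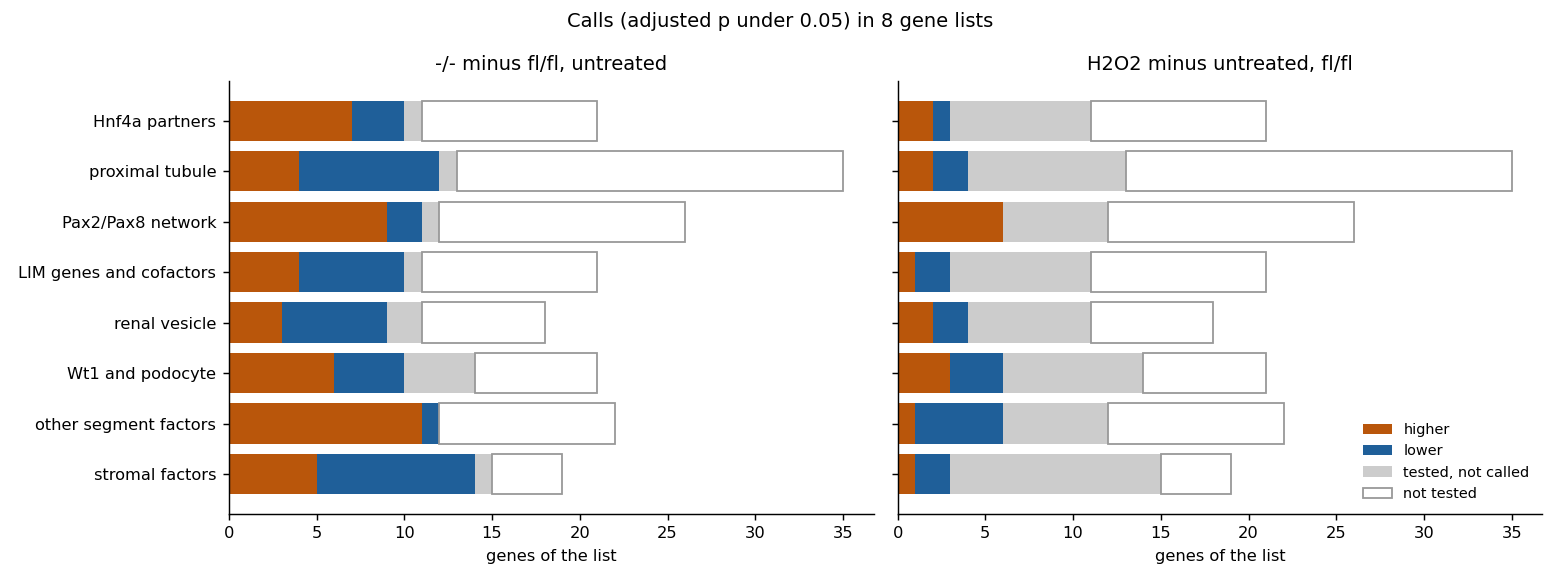
Genes of 8 lists (bars) that were higher, lower or not called at an adjusted p of 0.05, or not tested, for untreated Tgfbr2-/- minus Tgfbr2fl/fl cells (left) and for H2O2 in Tgfbr2fl/fl cells (right). The Pax2/Pax8 network and the factors of other segments have 12 genes tested each. Of these, 9 and 11 were higher in untreated Tgfbr2-/- cells, against 33.3% of all genes tested. Among those higher, 8 and 7 reached the level of the filter in both genotypes.

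Markers of other cell types also differed with genotype, where 64.7% of all genes tested passed an adjusted p of 0.05 between untreated cells. Few of the markers listed passed the filter, and their part in the values of the 8 factors was not tested. Of 12 fibroblast markers, 4 were tested and the list summed to between 5587 and 6936 normalized counts in untreated Tgfbr2fl/fl cells and to between 190.5 and 241.6 in untreated Tgfbr2-/- cells. With H2O2 it summed to between 2648 and 3067 and between 124.2 and 148.2. Postn made up most of each of these sums, which therefore mainly follow this gene. It was at 6101 ± 688 against 197 ± 28.6 in untreated cells (log2 fold change -4.96, SE 0.09, adjusted p = 5.11e-29), and at 2743 ± 216 and 88.3 ± 8.01 with H2O2. Pdgfrb was at 16.3 ± 4.67 and 2.41 ± 3.38 and Dcn at 1.46 ± 1.71 and 5.51 ± 2.99 in untreated cells, and Thy1 and Lum were at 0 in all libraries. The 10 endothelial markers, 3 of them tested, summed to between 199 and 208.3 and between 636.6 and 732 in the untreated genotypes and to between 118 and 125.8 and between 186.5 and 214.8 with H2O2. Kdr rose in untreated Tgfbr2-/- cells (1.97, SE 0.12, adjusted p = 5.82e-16), Esam was at 5.43 ± 2.04 and 12.3 ± 5.69 normalized counts, and Pecam1 had 4 counts in all.

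Of 10 leukocyte markers, 2 were tested, Cd68 higher (0.78, SE 0.11, adjusted p = 3.11e-07) and Csf1r lower (-0.27, SE 0.07, adjusted p = 0.00169), and Cd3e, Tyrobp and Adgre1 were at 0. The list summed to between 908.7 and 1079 in untreated Tgfbr2fl/fl, 990.2 and 1095 in H2O2-treated Tgfbr2fl/fl, 948.5 and 981.2 in untreated Tgfbr2-/- and 1046 and 1169 in H2O2-treated Tgfbr2-/- cells. Of 14 markers of distal segments, 3 were tested: Trpm6 (2.40, SE 0.21, adjusted p = 7.89e-12) and Scnn1g (1.06, SE 0.31, adjusted p = 0.00377) rose and Hsd11b2 fell (-1.97, SE 0.10, adjusted p = 2.38e-17). That list summed to between 647.4 and 934.7, 1861 and 1982, 299.2 and 346.5, and 859.4 and 887.1 in the same order of groups. The sum was thus lower in untreated Tgfbr2-/- cells although 2 of the 3 genes tested rose there. Aqp2, which defines the collecting duct, was at 0 in all libraries.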

How the data were processed

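Per the labels and the study's methods, the authors trimmed the reads, aligned them with STAR to GRCm38.p6 and counted them with featureCounts. They deposited raw counts, 1 value per transcript and not normalized. That a read shared by several transcripts is counted on each is inferred from the counts, as the sources used here do not give this setting. The tests had been planned for gene counts. Identifiers of 104820 of the 106332 transcripts had a match in GENCODE M39. The other 1512, with 1.22% to 1.28% of the counts of a library, were left out. The transcript with the highest total stood for its gene, which gave totals of 15870155 to 20857618 per library. The strand setting of the counting is not given in the sources used here.

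Counts were tested with edgeR 4.0.16 in R 4.3.3 (TMM normalization, filterByExpr on the 4 groups, glmQLFit and glmQLFTest, 1 mean per group, all 12 libraries), with p adjusted by Benjamini-Hochberg over 12971 genes. Genes that reached the level of the filter in at least 3 libraries of each genotype were counted apart from the others, a split added after the data were seen. Normalized counts refer to a library of 17351835 counts. The SE is the log2 fold change divided by the square root of its F statistic. On simulated counts for the untreated genotype comparison (12764 genes), 199 of 200 genes with a simulated fold change of 2 were recovered and 11 others were called. The simulation gave all genes the same spread and changed only well-counted genes, and far fewer than were called in the data. It therefore does not give the power of the tests above. Replicates differed by more than sampling noise (chi-square per gene 3.58 to 12). DESeq2 1.42.0 and the other alternatives were run as the closing section gives.

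The 8 factors and the lists were chosen with earlier results of these data known. Named by rule were the factors, the 3 protein-coding genes most correlated with each tested factor (mean of at least 10 normalized counts), and in each list the 2 highest and 2 lowest log2 fold changes among genes called between untreated genotypes. Some genes, 1 of them named by this rule, are not reported here by name but stay in the counts of their lists. Slc34a1, Slc22a6, Lrp2, Aqp1, Mme, Pax3, Pax6, Pax9, Lhx5, Ldb1, Emx1, Nphs1, Sox9, Lmo4 and the cell type markers at few or no counts were named after their values had been seen. Ranges and tables were computed in Python 3.11.15. Promoter windows came from a RefSeq table that held 5 of the 8 factors (none for Hnf4g, Osr1 and Wt1).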

Additional observations from a re-analysis of the deposited data

Results flagged for a closer look

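For 9 genes named here, the H2O2 difference in Tgfbr2-/- cells differed from that in Tgfbr2fl/fl cells (interaction in edgeR's test, adjusted p under 0.05, n = 3 libraries per group, on the log2 scale). Of the 8 factors this was Pax2, with an interaction of 0.64 (SE 0.09, adjusted p = 1.94e-05) from -0.16 in Tgfbr2fl/fl and 0.48 in Tgfbr2-/- cells. Sox9, a factor of regenerating tubule cells, had one of 1.04 (SE 0.21, adjusted p = 0.00131) from -0.54 and 0.50. The LIM-only gene Lmo4 had one of 0.36 (SE 0.09, adjusted p = 0.00674) from -0.56 and -0.20, and the podocyte gene Synpo one of 0.68 (SE 0.10, adjusted p = 4.54e-05) from 0.07 and 0.74.

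Negative interactions were those of Tgfbr2 (-0.57, adjusted p = 7.85e-05), Aqp1 (-0.82, adjusted p = 4.45e-07), Gfra1 (-1.12, adjusted p = 0.00487), Podxl (-0.70, adjusted p = 0.0239) and Kdr (-0.84, adjusted p = 0.0446). The first 4 passed as higher with H2O2 in Tgfbr2fl/fl cells, by 0.70, 1.04, 0.90 and 0.46, where the differences in Tgfbr2-/- cells were 0.13, 0.22, -0.22 and -0.25. Kdr fell in both, by 2.57 and 3.41 on the log2 scale. The interaction of Podxl lost its call on sums over transcripts (adjusted p = 0.0588) and without replicate 2 of untreated Tgfbr2fl/fl cells (0.0632), replicate 1 (0.0671) or 3 (0.065) of H2O2-treated Tgfbr2fl/fl cells or replicate 2 of H2O2-treated Tgfbr2-/- cells (0.0531). That of Kdr lost it without replicate 2 (0.0513) or 3 (0.0578) of untreated Tgfbr2fl/fl cells, any 1 library of H2O2-treated Tgfbr2fl/fl cells (0.0787 to 0.0982), replicate 1 of untreated Tgfbr2-/- cells (0.0909) and replicate 1 (0.0851) or 2 (0.139) of H2O2-treated Tgfbr2-/- cells. The H2O2 difference of Podxl in Tgfbr2fl/fl cells, at an adjusted p of 0.0494, lost its call in 9 alternatives, and that of Gfra1 without replicate 1 of H2O2-treated Tgfbr2fl/fl cells (0.62, adjusted p = 0.051). With 3 libraries per group, no single library was tested as an outlier.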

How the results depend on the processing

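At the limits of the study (unadjusted p under 0.01 and fold change of at least 1.5, edgeR) the factors called numbered 2 of 6 in each genotype comparison and 0 with H2O2 in each genotype, against 5, 5, 2 and 2 at an adjusted p of 0.05. Another normalization, DESeq2, other filters, sums over transcripts, fits of only the groups compared and the replicate block kept these counts within 1.5 times. With at least 10 counts in every library, Lhx1 was not tested. Without a filter, Pax2 passed with H2O2 in Tgfbr2fl/fl cells (-0.16, adjusted p = 0.0369). Of all log2 differences of the factors recomputed, 397 kept their direction and side of the threshold, 7 passed newly and 3 no longer passed. Another 7 turned in sign, all 7 from uncalled values when 1 library was left out. The interaction of Lhx1 was 0.00, where no sign can turn, and counts among the 397. It ranged from -1.41 to 3.15 without each library in turn. Without each library in turn, the log2 differences ranged from -0.07 to 0.09 for Wt1 between H2O2-treated genotypes, from -0.11 to 0.25 for the interaction of Osr1, from -0.30 to 0.05 for Osr1 with H2O2 in Tgfbr2-/- cells and from -0.88 to 3.68 for Lhx1 there, where it has 8 counts in all. The cause of these changes was not tested. For the lists between untreated genotypes, a minimum of 10 counts in every library left fewer genes to test: 7 factors of other segments (of 8 tested) and 1 gene of the renal vesicle list (of 7) were then higher, against 11 and 3, and 1 gene of the Pax2 and Pax8 list (of 10) was lower, against 2. The fitted difference of Lhx1 between untreated genotypes ranged from -8.08 to -4.38 and between H2O2-treated ones from -6.33 to -4.40 without each library in turn. Scaling by library totals without TMM moved 8 of 32 group levels by more than 1 SD.

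The replicate numbers did not pair the samples: same-numbered libraries of different groups had correlations of -0.101 to 0.0582 (0 of 18 pairs over 0.1), and 2 of 12 libraries correlated best with their own number. With the replicate number as a block, 5, 5, 2, 2 and 1 factors were called, with Pax2 at an interaction of 0.63, and 8287 genes were called between untreated genotypes against 8387.

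Depth limits Hnf4a, Hnf4g and, in Tgfbr2-/- cells, Lhx1, each with at most 5 counts in a group.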

Other observations

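Other genes of the Pax2 and Pax8 network, named after their values were seen, were measured in the same libraries. Eya1, a co-activator of early kidney mesenchyme, was at 156.6 ± 16.8 normalized counts in untreated Tgfbr2fl/fl cells and 314 ± 11.4 in untreated Tgfbr2-/- cells (log2 fold change 1.0, SE 0.12, adjusted p = 1.34e-08). Six2, which marks nephron progenitors, had 3 counts over all libraries. Paxip1, a protein that binds Pax2, was at 1762 ± 50.8 and 2512 ± 145 (0.51, SE 0.06, adjusted p = 3.86e-09). Sall1 was at 1560 ± 82.2 and 1529 ± 117 (log2 difference -0.03, SE 0.06, adjusted p = 0.7). Named likewise was the cadherin Cdh6 of the proximal tubule list, known from the renal vesicle and the early proximal tubule. It fell from 15050 ± 1498 to 3354 ± 60 (-2.17, SE 0.07, adjusted p = 4.49e-23).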
